A study of Mus musculus with 6 samples.

Results

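The nuclear genes for mitochondrial ribosomal proteins were taken as the protein-coding genes whose symbol is Mrpl or Mrps followed by a digit in a GRCm38 GENCODE annotation, and their RNA was followed in sorted mouse spleen CD4 T cells. The rule gave 78 genes of the 47729 in the count table, and 77 of them had enough counts for a test. Values of expression were not part of the rule.

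The cells came from spleens and were sorted by FACS in 3 groups of 2 samples. WT cells were mature naive T cells of wild-type mice, sorted by the gate CD3+CD4+CD25-CD45RBhi. Cells of the ON and OFF groups were immature naive T cells of RBPJind mice, gated as CD3+CD4+CD25-CD45RBint. The ON mice were given Dox water for 4 weeks, and their cells are labelled Notch responsive during maturation. For the OFF group Dox was given over 3 weeks and withheld for 1 week, and their cells are labelled Notch unresponsive. All 3 groups carry the treatment label Dox, with no duration given for WT. RBPJ is the DNA-binding factor through which Notch receptors act on transcription. The promoter and cell types that drive the RBPJind allele, and the mice's strain, age, sex and number per sample, are not given in the labels. In OFF against ON, loss of the Notch response and removal of Dox cannot be told apart. In both comparisons with WT, genotype, cell maturity and the CD45RB gate cannot be told apart. Whether both samples of a group came from different mice is not stated, and p-values therefore describe the spread among these samples alone, which may be technical.

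Mitochondria keep a small genome of their own and translate its messages on a separate ribosome. Its rRNAs are made inside the organelle, but all of its proteins are encoded in the nucleus, made in the cytosol and imported. The large subunit holds the site where peptide bonds form, the small subunit reads the message, and the products are membrane subunits of the respiratory chain and ATP synthase. T cells are known to build up mitochondria and mitochondrial translation when they leave quiescence. Some of these proteins have a counterpart in the bacterial ribosome, and others were added in the mitochondrial lineage.

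The libraries held between 17025551 and 19319183 counts assigned to genes, and levels are given as CPM, counts divided by the library's size after scaling by TMM. Rbpj stood at 36.1 and 35.3 CPM in WT, against 98.2 and 79.6 in ON, and 29.8 and 31.7 in OFF, in the order that the ON and OFF labels give. All 7 T cell markers were found, with a summed level of 2329 to 3269 CPM per library. Markers of dividing cells summed to 165 and 146 CPM in WT, beside 1139 and 539 in ON, and 559 and 894 in OFF. B cell markers summed to 205 to 228 CPM in WT and 312 to 445 in ON and OFF. Dendritic cell markers summed to 6.16 and 4.01 CPM in WT and 26.6 to 36.9 in ON and OFF, and myeloid markers to 12.8 and 12.9 in WT and 22.7 to 38.2 in ON and OFF. CD8 T cell markers summed to 13.8 to 23.7 CPM, stromal and endothelial markers to 159 to 234, NK cell markers to at most 9.63 and erythroid markers to at most 1.68. Reads that did not align made up 14.8% and 9.34% in ON, below the 18.8% to 24.3% of the other libraries. Beyond sampling noise, the ON replicates differed most, with a chi-square per degree of freedom of 65.9 against 9.50 for WT and 17.8 for OFF.

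Of the 77 tested members, 50 belong to the large subunit and 26 to the small one. Mrps18a and Mrps30 were placed in the large subunit, where their proteins lie. Mrps36, also called Kgd4, is a component of the oxoglutarate dehydrogenase complex and was kept apart. The 77 genes had between 251 and 5919 counts over the 6 libraries, with a median mean level of 16.9 CPM. The remaining member, Mrpl53, was at 0 counts throughout, for which the upper limit is 3 counts per library and covers counting error only. In the annotation, 88% of its exon bases overlap other genes on the same strand, so a count of 0 does not show that it is unexpressed. Across the genome the 78 genes are scattered: chromosome 11 holds 11, chromosome 17 holds 8, chromosome 6 holds 7, and chromosomes 12, 18, X and Y hold none. Of the tested members 45 share no exon base with another gene. The 5 annotated pseudogenes named after members had at most 14 counts in a library.

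The start sites of these genes were examined in RefSeq promoter windows (GRCm38.p6, 250 bases before to 50 after the start), of which 75 windows of 69 members were matched. The word CCGGAAG, read on both strands and typical of sites bound by ETS factors, occurred in 26 member windows (34.7%), against 8.86% of all 32851 windows. The YY1 word AAGATGG occurred in 13 member windows (17.3%), against 6.34% of all. The word GCGCATG, the core of an NRF1 site, occurred in 8 (10.7% against 3.91%), and the TATA box TATAAA in 5 (6.67% against 13.6%). Member windows also had a higher median GC content, 58.7% against 52.7%, and a median of 21 CpG against 7. These matches describe the letters and not bound sites, and GC content differs along with them.

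The stretches directly upstream of 2 members that were higher in ON than in WT, Mrpl43 and Mrpl52, are shown. Both are clear of annotated exons and run 5′ to 3′ on the gene's strand. Capitals mark CCGGAAG or its reverse complement CTTCCGG, and AAGATGG. Upstream of Mrpl43 lie 2 ETS words, and upstream of Mrpl52 1 ETS and 1 YY1 word.
Mrpl43, chr19:45006443-45006557, minus strand: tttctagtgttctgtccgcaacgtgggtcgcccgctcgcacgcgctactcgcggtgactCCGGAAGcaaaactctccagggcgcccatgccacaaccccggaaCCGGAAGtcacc
Mrpl52, chr14:54426709-54426908, plus strand: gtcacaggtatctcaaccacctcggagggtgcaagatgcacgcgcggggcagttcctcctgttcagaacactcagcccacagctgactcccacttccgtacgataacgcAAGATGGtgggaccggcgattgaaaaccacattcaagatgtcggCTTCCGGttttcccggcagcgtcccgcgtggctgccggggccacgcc
Of the other members called higher in ON than in WT, Mrpl18 and Mrps21 had the ETS word in their windows and Mrpl39 the NRF1 core. The words are not particular to these members: the window of Mrps12, which was not called, holds the ETS and the YY1 word too.

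For 33 of the 78 members (42.3%) a partner was found, a protein-coding gene on the opposite strand with its start within 1000 bases. The same held for 2382 of 21938 protein-coding genes (10.9%). Pairs whose first parts overlap were counted along with pairs that lie apart. Mrpl18 with Tcp1, Mrpl43 with Twnk, Mrpl27 with Eme1 and Mrpl13 with Mtbp are among the overlapping ones. Partners of 30 members were tested, and 5 partners were called higher in ON than in WT and 0 lower, where 9.68% of all genes tested were higher and 5.16% lower by edgeR's quasi-likelihood test with Benjamini-Hochberg adjustment. These were Tcp1, a subunit of the cytosolic chaperonin, beside Mrpl18 and 4 genes with known roles in the cell cycle or DNA repair, namely Ncapd2 beside Mrpl51, Ska3 beside Mrpl57, Eme1 beside Mrpl27 and Mtbp beside Mrpl13. Of the members beside those 5 partners only Mrpl18 was called in that comparison.

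Taken as a sum, RNA of the mitochondrial ribosomal proteins was highest in both ON libraries. The summed level of the 78 genes was 1451 and 1416 CPM in WT, against 1611 and 1675 in ON, and 1399 and 1506 in OFF. Both ON sums lay above all 4 others, and the OFF sums fell on either side of the WT sums. The means were 1433 ± 25.1 in WT, 1643 ± 45.3 in ON and 1452 ± 75.8 in OFF (SD, n = 2 each), so that ON was 1.15 times WT and 1.13 times OFF. The sums came to 0.134% to 0.175% of all gene counts. The large subunit averaged 939, 1100 and 969 CPM in WT, ON and OFF, and the small subunit 487, 535 and 476. With 2 against 2 samples the smallest p of a two-sided exact permutation test is 0.333, so these sums were not tested. In bulk samples a change in the make-up of the cells and a change in RNA per cell cannot be told apart.

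The same order was seen over single members. On the scale of log2(CPM + 0.5) the median member deviated from its own mean over the 6 libraries by -0.04 and -0.08 in WT, beside 0.11 and 0.08 in ON, and -0.10 and 0.04 in OFF. In ON 1 and ON 2, 58 and 53 of the 77 members were above their own mean, against 27 and 22 in WT 1 and WT 2, 22 in OFF 1 and 48 in OFF 2. The OFF replicates thus differed from each other, with OFF 2 nearer to ON. The median member was 0.17 higher in OFF 2 than in OFF 1 on the log2 scale, beside 0.01 for all genes, while the ON replicates differed by a median of 0.00 and the WT replicates by -0.05. The share of unaligned reads was lowest in the ON libraries and markers of dividing, B, dendritic and myeloid cells were lowest in WT, and their part in these values was not tested.

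**Figure D1:**
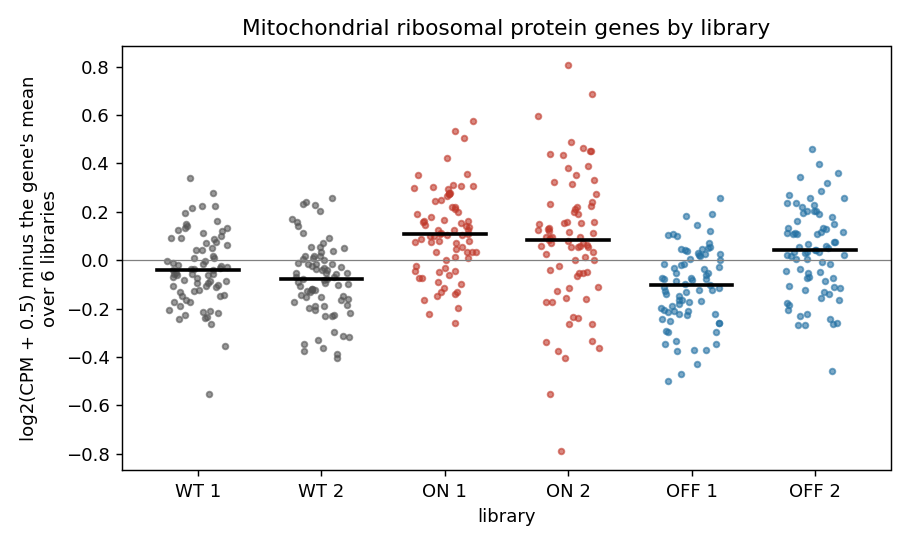
Deviation of each of the 77 tested members (points) from its own mean over the 6 libraries, as log2(CPM + 0.5), by library, with a black line at the median of each library. The medians are above 0 in ON 1 (0.11), ON 2 (0.08) and OFF 2 (0.04), and below 0 in WT 1, WT 2 and OFF 1.

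Of the 77 tested members 49 had their highest group mean in ON (63.6%, against 34.2% of all genes tested), 16 in OFF and 12 in WT. In 24 members both ON libraries were above all 4 other libraries, against 13.1% of all genes tested. These were 17 large subunit genes (Mrpl2, Mrpl12, Mrpl14, Mrpl15, Mrpl17, Mrpl18, Mrpl23, Mrpl28, Mrpl39, Mrpl41, Mrpl42, Mrpl43, Mrpl44, Mrpl45, Mrpl46, Mrpl50 and Mrpl52) and 7 small subunit genes (Mrps9, Mrps11, Mrps15, Mrps21, Mrps26, Mrps31 and Mrps34). In 1 member, Mrpl33, both ON libraries were below all the others, against 14.7% of all genes tested.

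The comparison of ON with WT sets Notch-responsive immature cells against mature wild-type cells. In ON, 5 members were higher than in WT and none was lower, by edgeR's quasi-likelihood test with Benjamini-Hochberg adjustment at 0.05. Of all 15780 genes tested 9.68% were higher and 5.16% lower (1527 and 815 genes, or 1272 and 1091 with upper quartile scaling), so members were not called more often than genes in general. The median member was 0.17 higher on the log2 scale, with 57 members above 0 and 20 below, while the median of all genes was -0.02. With upper quartile scaling the members' median was 0.09 and that of all genes -0.09. In 37 members both ON values were above both WT values (48.1%, against 29.8% of all genes), and in 5 both were below (6.49% against 30%). Of the 12667 protein-coding genes tested, 34.2% were above and 27.0% below, and their median log2 change was 0.03. The members' median was 0.22 without WT 1, 0.16 without WT 2 and 0.21 without ON 2. Calls of members were lost in these fits, which leave 1 sample in a group. Calls over all genes became fewer in them too, so the losses are not particular to the members. The large subunit had a median of 0.19 with 4 members called, and the small subunit 0.13 with 1. Members with a bacterial counterpart had a median of 0.14 and those without one 0.18. For the 45 members that share no exon base with another gene the median was 0.18 and 3 were called. Markers of dividing, B, dendritic and myeloid cells were higher in both ON libraries than in both WT libraries, and their part in these values was not tested.

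**Figure D2:**
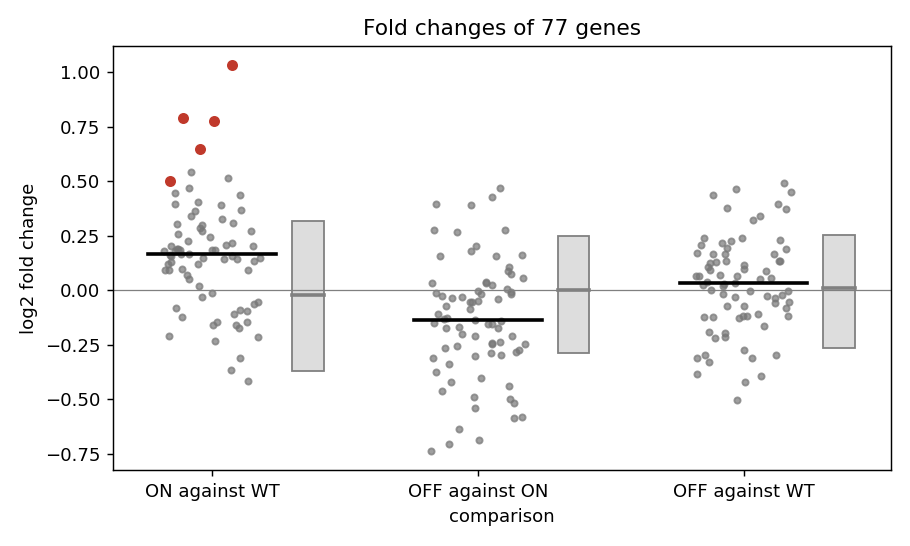
Log2 fold change of each tested member (points) in the 3 comparisons, in red where called by edgeR's quasi-likelihood test, with a black line at the members' median and a grey box for the middle quartiles and median of all genes tested. The members' median lies at 0.17 for ON against WT, -0.14 for OFF against ON and 0.03 for OFF against WT, and the 5 called members all lie above 0 in ON against WT.

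Mrpl52, a large subunit protein with no bacterial counterpart, differed most. Its gene (ENSMUSG00000010406, GRCm38 chromosome 14, 54426909 to 54429756, plus strand) had 32.3 and 35.9 CPM in WT, against 55.6 and 83.8 in ON, and 44.4 and 48.9 in OFF. The 3 groups did not overlap, ON being highest and OFF between ON and WT, although the ON replicates were far apart. In ON it was 2.04-fold higher than in WT, a log2 change of 1.03 ± 0.19 (SE), with an adjusted p of 0.00757 by edgeR's quasi-likelihood test with Benjamini-Hochberg adjustment. The differences of OFF from ON, -0.58, and of OFF from WT, 0.45, did not pass, with edgeR adjusted p of 0.142 and 0.193. The call of ON against WT was lost only without WT 1 or without WT 2, where the log2 change was 0.96 and 1.13. OFF against WT was called without ON 1 or without ON 2, at 0.48 and 0.47. Calls over all genes became fewer in the first 2 fits and more frequent in the last 2.

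Mrpl18, the counterpart of a bacterial protein that binds 5S rRNA, lies on chromosome 17 (ENSMUSG00000057388, 12911349 to 12916345, minus strand). It had 46.1 and 39.9 CPM in WT, beside 64.4 and 83.9 in ON, and 43.3 and 45.7 in OFF. Both ON libraries were above the other 4, and WT and OFF overlapped. In ON it was 1.73-fold higher than in WT (log2 0.79 ± 0.15, SE), with an edgeR adjusted p of 0.00993. The call was lost without WT 1 or without WT 2, where the log2 change was 0.90 and 0.71. OFF was 1.67-fold lower than ON, a log2 change of -0.74 ± 0.15, and just missed the threshold with an edgeR adjusted p of 0.0566. DESeq2 called it (adjusted p 0.00386), where it called 3.56% of all genes with an adjusted p. The crossed replicate block called it too (edgeR adjusted p 0.0124). That block was added after seeing the data and called 7.67% of all genes, so it is no separate support. The other alternatives that kept all samples of ON and OFF did not call it. Without ON 1 the log2 change was -0.91, and without ON 2 -0.54. Its exons share 10.1% of their bases with Tcp1 on the opposite strand. Tcp1 had 197 and 199.8 CPM in WT, against 252 and 314 in ON, and 196 and 197 in OFF, and was also higher in ON than in WT (log2 0.51, edgeR adjusted p 0.0286). Whether the counting used strand is not given, so how reads in the shared bases were counted is not known. Reads ambiguous between genes were kept in a summary row outside the gene counts, at 0.987% to 1.33% of reads per library.

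Mrps21, a small subunit protein with a bacterial counterpart, lies on chromosome 3 (ENSMUSG00000054312, 95862634 to 95871519, minus strand). It had 13.8 and 13.3 CPM in WT, beside 24.6 and 21.6 in ON, and 12.5 and 15.8 in OFF. Both ON values were above the others, and the WT values lay between those of OFF. The rise from WT to ON was 1.71-fold (log2 0.78 ± 0.17, SE; edgeR adjusted p 0.0172), and OFF differed from ON by -0.71 with an edgeR adjusted p of 0.0808. Without WT 1 or without WT 2 the rise was no longer called, with a log2 change of 0.81 and 0.77.

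Mrpl39, which has no bacterial counterpart, lies on chromosome 16 (ENSMUSG00000022889, 84717576 to 84735742, minus strand). Its CPM was 22.4 and 20.001 in WT, against 30.9 and 35.5 in ON, and 23.0 and 26.5 in OFF. Again the ON libraries were the highest, by 1.57-fold over WT (log2 0.65 ± 0.15, SE; edgeR adjusted p 0.0207). Against ON, OFF stood at -0.42 with an edgeR adjusted p of 0.169. The rise lost its call without WT 1, WT 2 or ON 2, with a log2 change of 0.74, 0.59 and 0.57.

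Mrpl43, also without a bacterial counterpart, lies on chromosome 19 (ENSMUSG00000025208, 45004829 to 45006442, minus strand). It had 17.2 and 19.4 CPM in WT, beside 26.3 and 25.5 in ON, and 21.6 and 24.3 in OFF. OFF lay between ON and WT without overlap. The rise from WT to ON, 1.41-fold (log2 0.50 ± 0.15, SE), passed at an edgeR adjusted p of 0.0487. Of its exon bases 33.4% are shared with Twnk, the mitochondrial DNA helicase on the opposite strand, whose own change from WT to ON was 0.02 (edgeR adjusted p 0.950). In 15 of the 16 alternative analyses Mrpl43 was no longer called, with adjusted p up to 0.328, the exception being the crossed replicate block.

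**Figure D3:**
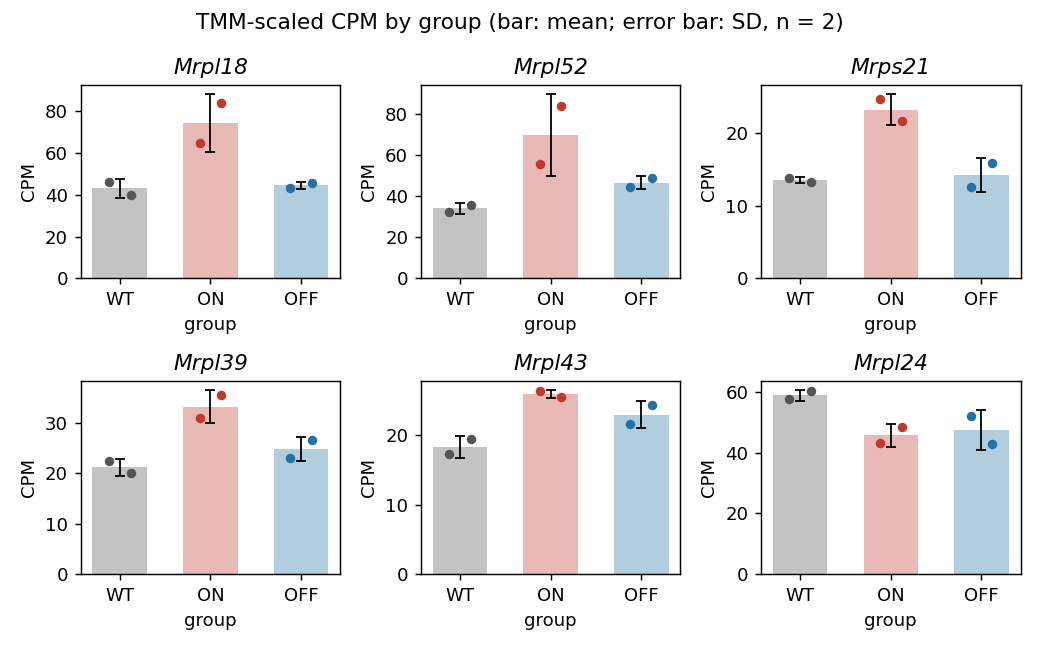
TMM-scaled CPM of the 5 members called higher in ON than in WT and of Mrpl24, in a panel per gene, with a point for each library, a bar for the group mean and an error bar for the SD (n = 2). For the 5 called members both ON libraries are above the WT and OFF libraries, while for Mrpl24 both WT libraries are highest.

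Of the members not called in the same comparison, Mrpl46 and Mrpl54 had the smallest adjusted p. Mrpl46 had 15.6 and 16.1 CPM in WT, against 21.3 and 24 in ON, and 14.2 and 16.0 in OFF. The ON libraries stood above the rest, with a log2 change from WT of 0.51 (edgeR adjusted p 0.0521). Its exons share bases with Mrps11, itself a member. Mrpl54 had 18.7 and 17.4 CPM in WT, beside 23.4 and 25.3 in ON, and 22.2 and 25.2 in OFF. Here ON and OFF overlapped and both were above WT, by 0.44 and 0.39 (edgeR adjusted p 0.0777 and 0.154). Mrpl27, among the 6 members of largest rise, stood at 8.07 and 8.08 CPM in WT, against 14.1 and 9.42 in ON, and 7.97 and 11.1 in OFF, a log2 change from WT to ON of 0.54 (edgeR adjusted p 0.178) with ON 1 far above ON 2.

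Mrpl24 and Mrpl33, both large subunit proteins with bacterial counterparts, stood lowest in ON relative to WT. Mrpl24 had 57.5 and 60.1 CPM in WT, beside 43.0 and 48.3 in ON, and 52.1 and 42.7 in OFF. Both WT libraries were above the other 4, and the ON to WT difference was -0.37 (edgeR adjusted p 0.107). Of its exon bases 26.3% are shared with Rrnad1 on the opposite strand. Rrnad1 changed by -0.37 from WT to ON as well (edgeR adjusted p 0.260), and the part of the shared bases was not tested. Mrpl33 had 19.3 and 19.2 CPM in WT, against 15.6 and 13.3 in ON, and 19.8 and 18 in OFF. It was the member with both ON libraries below all others, at -0.42 against WT and with OFF 0.39 above ON (edgeR adjusted p 0.112 and 0.227). Across the 6 libraries these members ran opposite to the mean of the other members, with Pearson's r of -0.800 for Mrpl24 and -0.820 for Mrpl33. Mrpl15, Mrpl41 and Mrps21 followed it most closely, at 0.955, 0.951 and 0.937, which is a description over 6 libraries that share their depth and scaling.

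OFF against ON addresses the week without Dox. No member was called in either direction by edgeR's quasi-likelihood test, where 0.602% of all genes were called higher and 0.425% lower (1.03% in all). At an unadjusted p under 0.05, 1 member was higher and 14 were lower, against 9.11% and 9.96% of all genes. DESeq2 called 2 lower, Mrpl18 and Mrps21, where it called 3.56% of all genes with an adjusted p. By limma-voom no member was called, where 0.837% of all genes were. The median member was at -0.14, with 56 below 0 and 21 above, while the median of all genes was 0.00. Both OFF values were below both ON values in 31 members (40.3%, against 23.3% of all genes) and above them in 6 (7.79%, against 23.4%). Of the protein-coding genes tested 25.8% were below and 21.8% above, with a median of -0.03. The large subunit stood at a median of -0.15 and the small subunit at -0.10, and members without a bacterial counterpart at -0.17 against -0.08 for those with one. The median of all members depended on the OFF replicates: it was -0.26 without OFF 2 and -0.02 without OFF 1. Without ON 1 it was -0.13. The median standard error of a member was 0.18 on the log2 scale, and the 95% interval lay within 2-fold for 71 of 77 members and within 1.5-fold for 36.

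The 6 members farthest below ON were Mrpl18, Mrps21, Mrpl46 and Mrpl52, described above, and Mrpl11 and Mrpl2. Mrpl2, a large subunit protein with a bacterial counterpart, had 12.7 and 14.3 CPM in ON and 7.97 and 9.43 in OFF, beside 9.57 and 9.94 in WT. The OFF values lay below both other groups, by -0.63 against ON (edgeR adjusted p 0.124). Mrpl11, part of the base of the stalk that contacts translation factors, had 9.15 and 8.43 CPM in WT, beside 8.33 and 11.6 in ON, and 5.72 and 6.67 in OFF. It was lowest in both OFF libraries, at -0.69 against ON and -0.51 against WT (edgeR adjusted p 0.157 and 0.251). Mrpl41 had 13.1 and 11.7 CPM in WT, against 16.8 and 17.0 in ON, and 9.88 and 13.8 in OFF, with ON highest and an OFF to ON difference of -0.52 (edgeR adjusted p 0.189).

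In OFF against ON, 11 of 50 large subunit members and 10 of 26 small subunit members were above 0. The largest rises came from both subunits, with Mrpl1, Mrpl22 and Mrpl33 of the large and Mrps16, Mrps18c and Mrps24 of the small subunit. Mrps24 had 24.4 and 22.3 CPM in WT, beside 24.3 and 15.5 in ON, and 26.2 and 27.1 in OFF. Both OFF libraries were highest, at 0.43 above ON (edgeR adjusted p 0.285), but the ON replicates were far apart. Mrps16 had 7.54 and 8.08 CPM in WT, against 9.76 and 6.94 in ON, and 10.7 and 11.2 in OFF, again highest in OFF, by 0.40 over ON and 0.49 over WT (edgeR adjusted p 0.343 and 0.224).

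OFF against WT sets Notch-unresponsive immature cells against mature wild-type cells. By edgeR's quasi-likelihood test none of the members was called, where 4.7% of all genes were called higher and 2.14% lower (6.83% in all). At an unadjusted p under 0.05, 5 were higher and 3 lower, against 12.4% and 9.7% of all genes. Neither DESeq2 nor limma-voom called any member. In this comparison DESeq2 called 7.45% of all genes with an adjusted p, and limma-voom 3.70% of all genes tested. The members' median was 0.03, beside 0.01 for all genes, and its sign turned with the scaling, to -0.05 with upper quartile scaling. In 18 members both OFF values were above both WT values and in 18 below (23.4% each, against 29.8% and 25.8% of all genes). Of the protein-coding genes tested 33.2% were above and 26.1% below. The 2 OFF replicates again parted, with a median of -0.08 without OFF 2 and 0.14 without OFF 1. With ON 1 or ON 2 left out, Mrpl52 was called, at a log2 change of 0.48 and 0.47. Calls over all genes became more frequent in these fits too, so this is not particular to Mrpl52. The 95% interval lay within 2-fold for 74 of the 77 members. The 3 comparisons share their samples in pairs, so the members' values in them are not independent of each other.

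Genes of the factor-binding stalk and of other known roles are given next. Mrpl12, which also binds mitochondrial RNA polymerase, had 31.1 and 31.3 CPM in WT, beside 35.2 and 34.5 in ON, and 27.9 and 29.6 in OFF. The groups did not overlap, with ON highest and OFF lowest, but the differences were small (OFF against ON -0.28, edgeR adjusted p 0.270). Mrpl10, the stalk protein that anchors it, had 18.1 and 15.7 CPM in WT, against 22.1 and 19.5 in ON, and 20.7 and 25.9 in OFF, with WT lowest and OFF 0.46 above WT (edgeR adjusted p 0.146). Mrps12, the small subunit protein at the decoding site, had 8.07 and 8.37 CPM in WT, beside 8.74 and 7.14 in ON, and 8.84 and 10.3 in OFF. Its OFF values were the highest, by 0.27 over ON (edgeR adjusted p 0.510).

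Mrpl58, a peptidyl-tRNA hydrolase that became part of the large subunit, had 36.4 and 32.9 CPM in WT, against 38.4 and 39.1 in ON, and 35.6 and 40.0 in OFF. OFF overlapped both other groups, and the change from WT to ON was 0.16 (edgeR adjusted p 0.439). Mrpl44, which carries a ribonuclease III fold, had 9.63 and 10.1 CPM in WT, beside 12.4 and 12.4 in ON, and 9.94 and 12.3 in OFF, and its ON to WT difference of 0.33 did not pass (edgeR adjusted p 0.267). Mrps2 stood at 11.2 and 11.5 CPM in WT, against 15 and 12.3 in ON, and 14.4 and 16.4 in OFF, below both other groups in WT (OFF against WT 0.44, edgeR adjusted p 0.188).

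The 3 paralogs of bacterial S18 did not share a pattern. Mrps18a had 20.6 and 21.2 CPM in WT, beside 18.9 and 26.4 in ON, and 21.9 and 22.5 in OFF, so that the ON values spanned both other groups. Mrps18b had 10.6 and 10.2 CPM in WT, against 8.59 and 9.86 in ON, and 6.87 and 8.71 in OFF, highest in WT, with OFF at -0.42 against WT (edgeR adjusted p 0.274). Mrps18c stood at 1.09 to 3.12 CPM per library, with a standard error of 0.46 on the log2 scale for OFF against ON. Mrps36, the dehydrogenase component, had 6.76 and 7.44 CPM in WT, beside 10.6 and 5.60 in ON, and 6.12 and 8.47 in OFF. Its ON values held the highest and the lowest of the 6, and no difference between groups exceeded that spread.

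Levels of different members were compared per length only, as CPM per kilobase of exon. Counted over all annotated exons, the highest mean levels were those of Mrpl52 (45.2 CPM per kb), Mrpl18 (38.5), Mrpl54 (26.7), Mrps21 (22.9) and Mrpl24 (22.4). The lowest were those of Mrpl47 (1.76), Mrpl48 (1.92), Mrpl17 (2.04), Mrps18c (2.19) and Mrpl13 (2.29), and the median was 6.77. With the exons of coding transcripts alone the median became 10.7, and 3 of the 5 highest and 3 of the 5 lowest remained among them. Mrpl33 moved from 2.40 to 36.7 CPM per kb. The order of levels thus depends on the length used, and gene counts do not tell which transcripts the cells make.

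**Figure D4:**
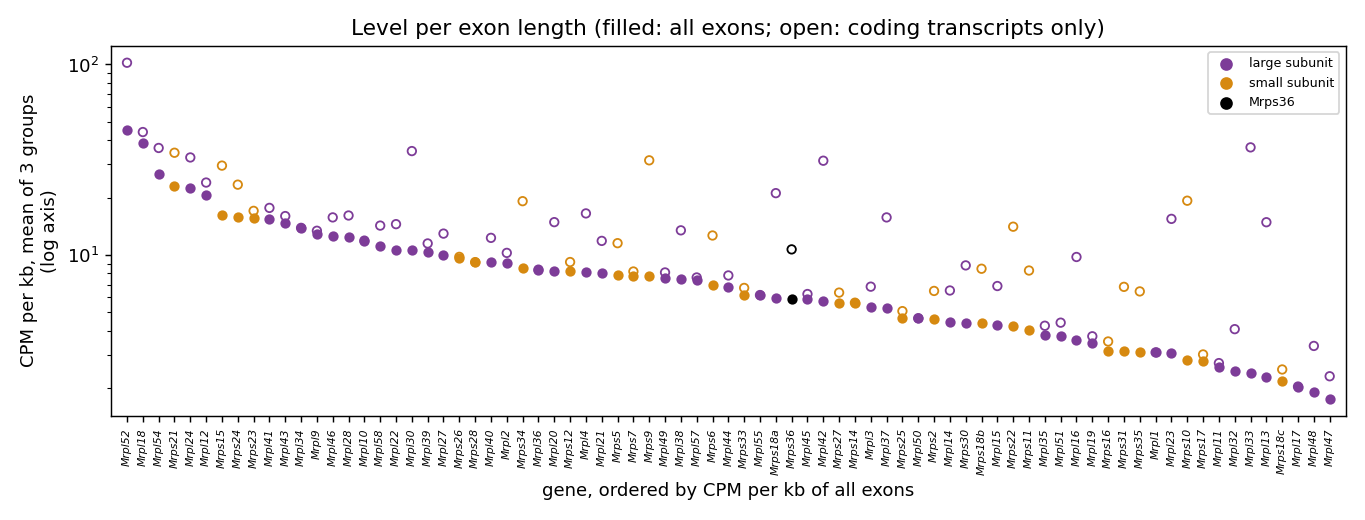
Mean level over the 3 groups of each tested member in CPM per kilobase, on a log axis, with filled points for the length of all annotated exons, open points for coding transcripts alone, and colours for the subunit. Mrpl52 is highest by both lengths, and Mrpl33 rises from 2.40 to 36.7.

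The other genes of translation are given for comparison. The 78 cytosolic ribosomal protein genes had a summed CPM of 57852 ± 2301 for WT, 61042 ± 6572 for ON and 52516 ± 310 for OFF (SD, n = 2), and their median log2 changes were -0.07 for OFF against ON, -0.02 for ON against WT and -0.12 for OFF against WT. In ON against WT 2 of these genes were called higher and 5 lower, where 9.68% and 5.16% of all genes were, and none in the other comparisons, by edgeR's quasi-likelihood test with Benjamini-Hochberg adjustment. The 11 tested protein genes of the mitochondrial genome, which the mitochondrial ribosome translates, had medians of 0.18, -0.05 and 0.09 in the same order. Neither they nor the 2 mitochondrial rRNAs were called in any comparison.

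Of 71 tested genes that work with the mitochondrial ribosome, edgeR's quasi-likelihood test called 2 higher and 4 lower in ON against WT, 1 higher in OFF against ON, and none in OFF against WT. Of all genes 14.8%, 1.03% and 6.83% were called in these comparisons, so the list was not called more often than genes in general. Their median was -0.01 in ON against WT, beside 0.17 for the members. Aurkaip1, a small subunit protein under another name, had 45.9 and 50.4 CPM in WT, against 65.1 and 83.6 in ON, and 49.4 and 55.6 in OFF. Like Mrpl18 it was highest in both ON libraries, at 0.63 over WT with an edgeR adjusted p of 0.0226. The assembly helicase Ddx28 was the other gene called higher (1.08, edgeR adjusted p 0.0376), with ON values of 13.5 and 9.47 CPM that overlapped those of OFF, 6.30 and 11. The 4 genes that fell were all aminoacyl-tRNA synthetases, of the 21 tested genes in that list, where 5.16% of all genes were lower: Lars2, Cars2, Mars2 and Wars2. That list was chosen with earlier results known and its count was not tested. Lars2 stood at 707 and 794 CPM in WT, beside 271 and 236 in ON, and 858 and 548 in OFF, with both ON values under the other 4, and was the gene called higher in OFF than in ON (1.47, edgeR adjusted p 0.0106).

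The genes outside the family whose 6 values ran most like the mean of the members were sought among 9452 tested genes with a mean of at least 5 CPM. They were Pfdn5 (Pearson's r 0.997 over 6 libraries), Dars (0.993), Atp5f1 (0.991), Lamtor1 (0.988) and Vdac3 (0.984), and 173 genes were above 0.9. Pfdn5, a subunit of the prefoldin chaperone, had 119 and 114 CPM in WT, against 136 and 129.9 in ON, and 112 and 127 in OFF. Its ON values were highest and its OFF replicates lay on either side of WT, as for the summed members.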

How the data were processed

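RNA-seq of total RNA was sequenced on a NovaSeq instrument and aligned to GRCm38, per the labels' protocols. The authors deposited raw counts per gene for 6 libraries, using R 3.6.2 and edgeR, per the submitters' processing notes. Not given in the sources used here: aligner, counting program, strand setting and annotation release. The 5 summary rows stayed out of library sizes and tests. They held reads without a gene, ambiguous between genes, of low alignment quality, not aligned, or not uniquely aligned (13.3% to 15.0%). Of all reads 33.7% to 46.9% were assigned to genes.

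Identifiers were matched to GENCODE mouse release M21 (47310 of 47729). Genes were kept by filterByExpr (minimum count 10, minimum total 15), which left 15780. Counts were scaled by TMM and tested with edgeR 4.0.16 (R 4.3.3) by the robust quasi-likelihood test, in 1 fit of all 6 libraries with 3 residual degrees of freedom, adjusted by Benjamini-Hochberg over all genes at 0.05. The biological coefficient of variation was 15.7%. Standard errors were taken from the fold change and its F statistic. The procedure was tested on simulated data with changes of 2-fold or more, which does not cover the smaller changes of most members. CPM were summed for each library over members. Lengths came from the same annotation and promoter windows from RefSeq.

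Alternatives were RLE and upper quartile scaling, no filter, a mean CPM of at least 1, DESeq2 1.42.0, limma-voom (limma 3.58.1), protein-coding genes alone, only the libraries compared, leaving out each library, and a replicate block. A crossed block, in which the replicate numbers of the OFF samples were swapped, and coding transcript lengths were added after seeing the data.

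The members, the lists of related genes and cell markers, and the rules were chosen with earlier results of these data known. The rule for naming took members called in any comparison and the 6 of largest rise and of largest fall in each. It also took the 5 highest and 5 lowest per length, members with known roles, and members under 1 CPM in every library. Not all of these are described above. Values are not given for Mrpl1 and Mrpl22 (rise, OFF against ON) or Mrpl1, Mrpl38 and Mrps7 (fall, ON against WT). They are also not given for Mrpl55 (rise, OFF against WT) or Mrpl21, Mrpl34, Mrpl37 and Mrpl38 (fall, OFF against WT). Of the members with known roles, Mrpl4, Mrpl57, Mrps30 and Mrps35 are without values. A few others were chosen after their values were seen, among them members highest in ON and members that followed the mean most closely.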

Additional observations from a re-analysis of the deposited data

How the results depend on the processing

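Of 1968 results of named members under the 16 alternatives 1856 kept direction and side of the threshold, 24 lost the call and 16 gained it. The sign changed in 72, over 31 of 41 members, 51 of them with a library left out. None of these 72 was called before or after, and their smallest adjusted p was 0.467. Mrps36, for example, went from 0.19 to -0.32 in ON against WT without ON 1. The crossed block called 7.67% of all genes in OFF against ON, 23.8% in ON against WT and 13.2% in OFF against WT. In OFF against ON, DESeq2 called 3.56% of all genes with an adjusted p. The larger member counts that follow for the crossed block and DESeq2 are thus not particular to the members. Without ON 1, calls over all genes became more frequent in OFF against ON and fewer in ON against WT. The number of called members in OFF against ON was 2 with DESeq2, 6 with the crossed block, 0 with the replicate block and 0 to 5 when a library was left out (5 without ON 1). In ON against WT it was 9 with the crossed block, 4 with the replicate block and 0 to 7 when a library was left out (0 without WT 1 or WT 2, 3 without ON 2, 7 without ON 1). In OFF against WT it was 1 with the crossed block, 0 with the replicate block and 0 to 1 when a library was left out (1 without ON 1 or ON 2).

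The members' median log2 change in OFF against ON was -0.13 with the replicate block and -0.26 to -0.0185 when a library was left out. In ON against WT it was 0.0947 with upper quartile scaling, 0.22 with no filter, 0.14 with protein-coding genes alone, 0.17 with the replicate block and 0.16 to 0.22 when a library was left out. In OFF against WT it was -0.0451 with upper quartile scaling, 0.13 with no filter, 0.03 with the replicate block and -0.0751 to 0.14 when a library was left out. It was also under 0 with genes kept at a mean of 1 CPM (-0.02), with protein-coding genes alone (-0.01) and with only the libraries compared (-0.01). The summed level in WT was 1483 CPM with upper quartile scaling. With protein-coding genes alone it was 2108 in WT, 2364 in ON and 2070 in OFF, since other genes then left the total.

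Same-numbered samples did not deviate together, with correlations of deviations from the group mean of 0.0762 for WT and ON, -0.187 for WT and OFF, and -0.158 for ON and OFF, so the numbers were not taken as pairs. The number of all genes called in OFF against ON, 162, became 497 with DESeq2, 60 with the replicate block, 1210 with the crossed block, 58 with only the libraries compared or protein-coding genes alone, and 67 to 619 when a library was left out. In ON against WT, 2342 became 1441 with the replicate block, 3755 with the crossed block and 368 to 2397 when a library was left out. In OFF against WT, 1078 became 663 with the replicate block, 2082 with the crossed block, 584 with limma-voom, 719 with genes kept at a mean of 1 CPM, and 223 to 1602 when a library was left out. The cause of these shifts was not tested, beside the loss of a library. With 2 samples a group, a median standard error of 0.18 per member limits what can be called.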
